A study of Triticum aestivum with 10 samples.

Results

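A set of 135 probes, of 37826 on each wheat array, was bright in cold leaves of both wheat lines, dim in the wild-type shoot and brighter in the necrotic shoot. The level of a probe is its log2 signal minus the array's 75th percentile, so that a level of 0 lies at that percentile, and group levels are means of 2 arrays. A probe was a member if its level in the wild-type leaf at 4 °C was above 0 and exceeded that in the wild-type shoot at 4 °C by at least 5. Its level in the necrotic shoot also had to exceed that in the wild-type shoot by at least 2, and its levels in the cold leaves of both lines had to differ by less than 1. The members were therefore chosen by values from the 8 arrays at 4 °C. Differences among those 4 groups are given as descriptions with no test.

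The plants belonged to 2 synthetic hexaploid lines, which are wheats made by crossing a tetraploid wheat to Aegilops tauschii, a wild goat grass. In the necrotic line the labels give cold-induced hybrid necrosis as the phenotype, and in the other line they give wild type. There was 1 line for each phenotype, so that line and phenotype cannot be told apart. All plants grew at 23 °C for 3 weeks. The 5 groups of 2 arrays were the necrotic leaf after a further 12 weeks at 4 °C, the necrotic leaf at 23 °C, the wild-type leaf after 12 weeks at 4 °C, the necrotic shoot after 6 weeks at 4 °C and the wild-type shoot after 6 weeks at 4 °C. The sample titles call the shoot samples shoot meristem, though they contained the shoot apical meristem and were not the meristem alone. No wild-type array at 23 °C was used here.

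Hybrid necrosis is a disorder of plants that combine incompatible parental genomes, in which tissue dies without a pathogen and transcripts of defence are often high. The shoot apex holds the dividing cells from which leaves arise, and as those cells become green leaf tissue they switch on large numbers of genes, among them those of photosynthesis. Cold acclimation is a separate programme in cereals, in which weeks at low temperature raise transcripts of protective proteins in leaf and crown.

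No spot was saturated on any array, and 28487 to 32630 probes were well above background on each. Across all probes, replicate arrays correlated at r = 0.994 to 0.998. The study's design text calls the 2 arrays of a group independent experiments without naming the plants behind them, so the p-values cover the spread between these arrays, which may be technical. The files pair no member with a gene, 0 of the 135 names were found in the wheat reference table, and no probe sequence was given in the sources used here. Members are therefore named by probe only, and markers of leaf, meristem, defence or cold could not be looked up to check the labelled tissues.

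In cold leaves of either line most members lay above the 75th percentile of the array, which the rule favours. In the shoots most lay below it, which the rule favours for the wild-type shoot. Their median level was 2.13 and 2.11 on the necrotic leaf arrays at 4 °C and 2.16 and 2.18 on the wild-type leaf arrays at 4 °C. On the necrotic shoot arrays it was -1.06 and -1.07, against -4.43 and -4.56 on the wild-type shoot arrays. The necrotic shoot thus stood between the wild-type shoot and the leaves for most members. On the arrays at 23 °C, which the choice of members did not use, the median was 0.76 and 0.75, and the members were spread over the widest range, with group means of -8.97 to 6.15. Replicates of a member lay close together, with a median absolute difference of 0.052 in the necrotic leaf at 4 °C, 0.057 in the necrotic leaf at 23 °C, 0.048 in the wild-type leaf, 0.053 in the necrotic shoot and, for the wild-type shoot, 0.10.

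**Figure D1:**
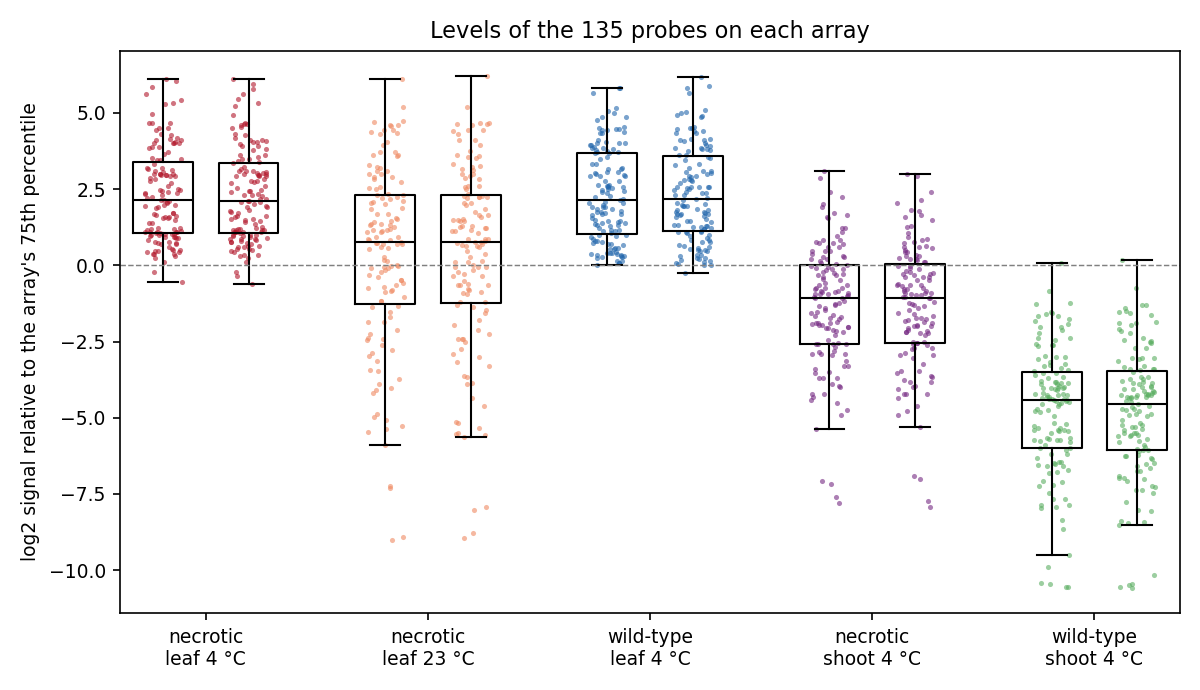
Levels of the 135 members on the 10 arrays, as log2 signal relative to the array's 75th percentile (dashed line). Points are probes, boxes show quartiles and medians, and whiskers reach 1.5 times the box height; the medians on the necrotic shoot arrays are -1.06 and -1.07, those on the wild-type shoot arrays -4.43 and -4.56.

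The difference between the shoots was large for many members. The necrotic shoot was higher by a median of 3.32 on the log2 scale, or 9.96-fold, and the range was 2.02 to 8.80. With normexp, a model of background with a constant of 50 added to each signal, in place of the deposited correction, the median was 2.32, or 4.98-fold. With the deposited correction the difference was 2 to under 3 for 58 members, 3 to under 4 for 36, 4 to under 5 for 32 and at least 5 for 9. For 135 of 135 members both necrotic shoot arrays lay above both wild-type shoot arrays, as they did for 37.7% of all probes measured on every array; the rule fixes the first count and nothing is read from it. All 4 shoot arrays lay on 1 slide, as did the 4 cold leaf arrays on another. In such bulk samples, more cells of a type and more RNA per cell cannot be told apart.

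These members were part of a larger group of 412 leaf-rich probes that met the other conditions of the rule, whatever their shoot difference. Of these, the 135 members made up 32.8%, 67 (16.3%) were higher in the necrotic shoot by 1 to under 2, 187 (45.4%) differed by less than 1 and 23 (5.58%) were lower by 1 or more. The 187 had median levels of -3.50 (necrotic shoot) and -3.61 (wild-type shoot), beside cold leaf medians of 2.74 (necrotic) and 3.12 (wild type). Leaf-rich probes as a whole were therefore not raised together in the necrotic shoot. The edge between the sets is narrow, since the member nearest the shoot threshold had a difference of 2.02 and the nearest probe outside it 1.99. For the difference between wild-type leaf and wild-type shoot the corresponding values were 5.007 and 4.999.

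**Figure D2:**
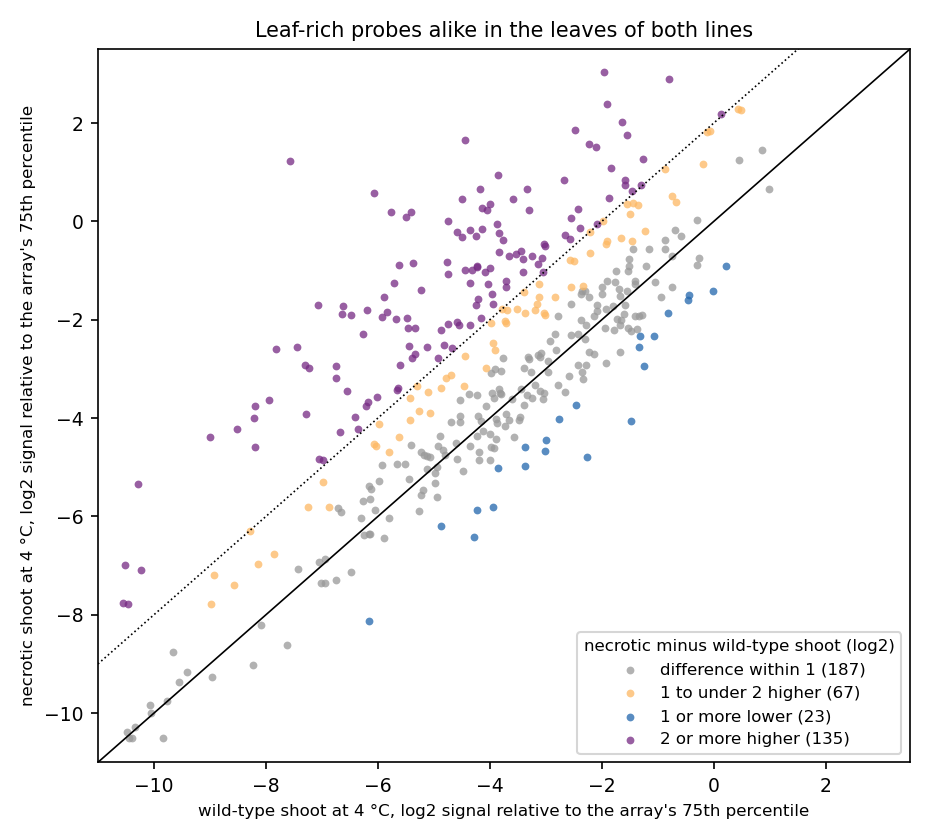
Level in the necrotic shoot against level in the wild-type shoot at 4 °C for the 412 leaf-rich probes that were alike in the leaves of both lines, in log2 signal relative to the 75th percentile. The solid line marks equal levels and the dotted line a difference of 2; the 135 members lie above the dotted line and 187 probes lie within 1 of the solid line.

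The member with the largest difference measured in both shoots was rwhkv10e02_224. It stood at 1.21 and 1.26 on the necrotic shoot arrays, against -7.65 and -7.47 on the wild-type shoot arrays, a difference of 8.80 or 446-fold, which was 5.99 or 63.7-fold with normexp. Its leaf levels at 4 °C were 3.64 and 3.54 in the necrotic line and 4.38 and 4.41 in the wild-type line, and its 23 °C leaf levels were 1.35 and 1.46, so that its 4 other groups all lay above 0. The second was wheat0130Contig9615, at 0.58 and 0.57 on the necrotic shoot arrays against -6.06 and -6.07 on the wild-type shoot arrays. The difference was 6.64, and 5.21 with normexp. Its level in the necrotic shoot was about that of the leaves, which stood at 0.50 and 0.51 in the necrotic line and at 0.28 and 0.25 in the wild-type line.

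At the lower edge, MUGEST2003_23lib_Contig9678_127 stood at -1.02 and -1.03 in the necrotic shoot against -3.06 and -3.04 in the wild-type shoot, a 4.07-fold difference. The next, whsh_allContig88, stood at 0.72 and 0.75 on the necrotic shoot arrays against -1.27 and -1.32 on the wild-type shoot arrays, or 4.08-fold. For these members the 2 arrays of a shoot group differed by far less than the groups did. The rule requires a shoot difference of at least 2, so nothing is read from this. Replicates were not close for all members, since 7 of the 135 differed by more than 0.5 between the wild-type shoot arrays and 5 between the wild-type leaf arrays. The widest gap was that of MUGEST2003_23lib_Contig14899_252, picked out for that reason after its values were seen. It stood at -4.39 and -6.98 on the wild-type shoot arrays, 2.58 apart, with -1.969 and -1.999 on the necrotic shoot arrays.

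Of the 135 members, 125 were well above background on both wild-type shoot arrays, 3 on 1 of them and 7 on neither, while all 135 were well above background on both necrotic shoot arrays. For the 7 the wild-type level is only a bound, and the fold was taken against the lowest signal well above background on each array or the probe's own signal, whichever was higher. Their necrotic shoot was at least 1.58-fold to at least 18.5-fold higher. The highest bound belonged to whsh_allContig486, also picked out after its values were seen, at -4.21 and -4.23 in the necrotic shoot and not well above background in the wild-type shoot (-8.66 and -8.38). Its fold between the shoot group means with normexp was 2.70, so that this bound holds for the deposited background correction only.

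How far a member in the necrotic shoot approached its leaf level was expressed as the difference between the shoots over the difference between wild-type leaf and wild-type shoot, both in log2. The leaf arrays followed 12 weeks at 4 °C and the shoot arrays 6 weeks, on separate slides, so that tissue, length of cold and slide cannot be told apart in the leaf minus shoot difference. The median share was 45.9%, with quartiles of 37.8% and 60.6%. It was under 50% for 83 members, 50% to under 75% for 43 and 75% or more for 9. The necrotic shoot thus stayed below the leaf for most members, and the wild-type leaf was a median of 13.4-fold above it. The level of a member exceeded 0 in the necrotic shoot for 35 members and in the wild-type shoot for 1, MUGEST2003_23lib_Contig26142_406 (0.077 and 0.17), named for that count after its values were seen.

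In 2 members the share passed 100%. The first, wheat0130Contig7489, stood at 1.64 and 1.65 in the necrotic shoot against -4.43 and -4.45 in the wild-type shoot, with cold leaf levels of 1.08 and 1.15 in the necrotic line and 0.56 and 0.57 in the wild-type line. Its share was 121.6%, and the necrotic shoot was its highest group. Its necrotic leaf at 23 °C stood at -3.90 and -3.86, so that the leaf at 4 °C was 32.0-fold higher (limma adjusted p = 2.32e-09), or 17.8-fold with normexp. The other was wheat0130Contig9615, described above. The lowest shares were 19.96% for rwhh15h11 and 25.7% for MUGEST2003_23lib_Contig6059_279. The first of these, rwhh15h11, stood at -4.22 and -4.21 in the necrotic shoot against -6.45 and -6.26 in the wild-type shoot, far under its cold leaf levels of 3.52 and 3.48 in the necrotic line and 4.34 and 4.34 in the wild-type line. Its necrotic leaf at 4 °C was 40.3-fold above that at 23 °C, where it stood at -1.86 and -1.81 (limma adjusted p = 7.78e-09). MUGEST2003_23lib_Contig6059_279 stood at -4.92 and -4.77 in the necrotic shoot against -6.71 and -7.26 in the wild-type shoot, and its necrotic leaf was 12.2-fold higher at 4 °C (limma adjusted p = 1.77e-06), or 8.07-fold with normexp. With normexp the shoot differences of these 2 probes were 0.99 for rwhh15h11 and 0.87 for MUGEST2003_23lib_Contig6059_279, under the threshold of 2.

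Between the leaves of the lines at 4 °C the members differed little, as the rule requires. The necrotic leaf minus the wild-type leaf had a median of -0.082 and ran from -0.99 to 0.96, with 60 members higher and 75 lower in the necrotic leaf. Both necrotic arrays lay above both wild-type arrays for 54 members and below them for 64, and the arrays overlapped for 17. The corresponding shares of all probes were 30.6% and 38.1%, and nothing is read from the counts. The brightest member in the wild-type leaf was MUGEST2003_23lib_Contig22075_1190, at 5.86 and 5.78 in cold leaves of the necrotic line and 5.82 and 6.16 in those of the wild-type line. In the necrotic shoot it stood at 1.55 and 1.47, against -2.13 and -2.09 in the wild-type shoot.

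**Figure D3:**
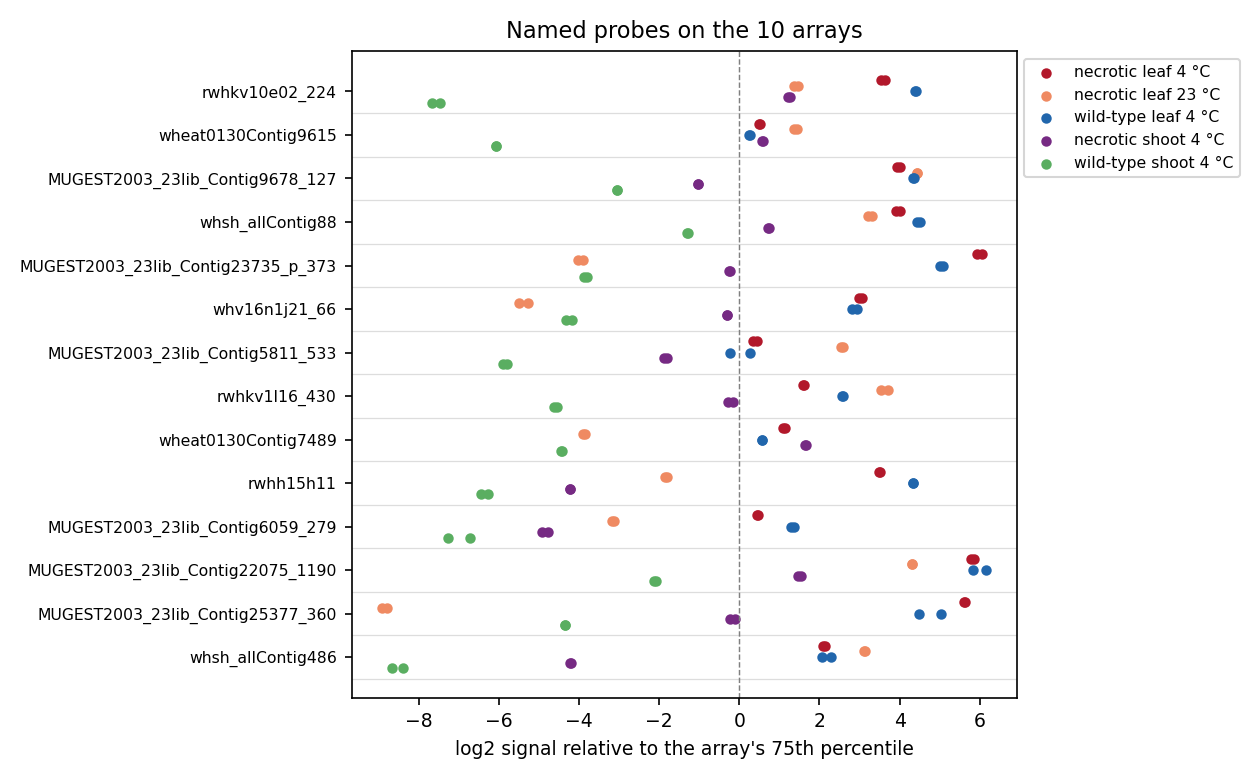
Levels of 14 named members on the 10 arrays, in log2 signal relative to the 75th percentile (dashed line), with 2 points per group. The wild-type shoot points lie left of the necrotic shoot points for every probe shown, which follows from the choice of members. The necrotic leaf at 23 °C lies near the cold leaves for some probes and far below them for others, such as MUGEST2003_23lib_Contig25377_360.

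The leaf of the necrotic line at 4 °C was then compared with separate leaf samples of that line at 23 °C. The question was whether members were bright in leaf also without the cold. Most were brighter at 4 °C. At least 2-fold, 76 of 135 members (56.3%) were higher at 4 °C and 9 (6.67%) were lower, by limma with an adjusted p under 0.05 over all 33045 probes tested. Among all probes tested the shares were 12.2% higher and 18.2% lower. Without a fold requirement 95 members (70.4%) were higher and 28 (20.7%) lower, against 31.6% and 45.2% of all probes, and 12 did not pass the test. Both arrays at 4 °C lay above both arrays at 23 °C for 98 members and below them for 37, against 32.8% and 55.8% of all probes. The median difference was 1.496 over the members and -0.18 over all probes tested. In the necrotic leaf 132 members had a level above 0 at 4 °C and 80 at 23 °C.

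A cold leaf level above -1 is required of each member, which favours a rise, so the other leaf-rich probes, chosen with the same leaf conditions, give the closer comparison. Of the 186 tested probes whose shoots differed by less than 1, 26 (14%) were at least 2-fold higher at 4 °C and 32 (17.2%) lower, and their median difference was -0.22. Of the 65 tested probes with a shoot difference of 1 to under 2, 13 (20%) were higher and 10 (15.4%) lower. Of the 23 probes lower in the necrotic shoot, 3 (13%) were higher and 4 (17.4%) lower. The share with a 2-fold rise was thus larger in the members than in any of the other leaf-rich sets, and no test was made of the difference between the sets. Within the members, it was 51.7% for shoot differences of 2 to under 3, 66.7% for 3 to under 4 and 53.7% for 4 or more.

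The arrays at 23 °C lay on a slide of their own and may have been scanned apart. They were dimmer before scaling, with 75th percentile signals of 789.5 and 807.7, against 1613 and 1539 for the necrotic leaf at 4 °C. Fewer probes were well above background on them, 28880 and 28487 against 30238 and 29918. Slide, scan, plant age and temperature therefore cannot be told apart. Quantile normalization and scaling to the median moved the balance of all probes more than that of the members. At least 2-fold, 13.7% of all probes were higher and 13.8% lower with quantile normalization, 6.36% and 14.2% with normexp background correction, and 14% and 14.6% with scaling to the median. The members counted 81 higher and 9 lower, 78 and 7, and 80 and 7 under the same settings. Relative to the median of all probes, the members' median was higher by 1.68 with scaling to the 75th percentile, 1.57 with quantile normalization and 2.025 with normexp.

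**Figure D4:**
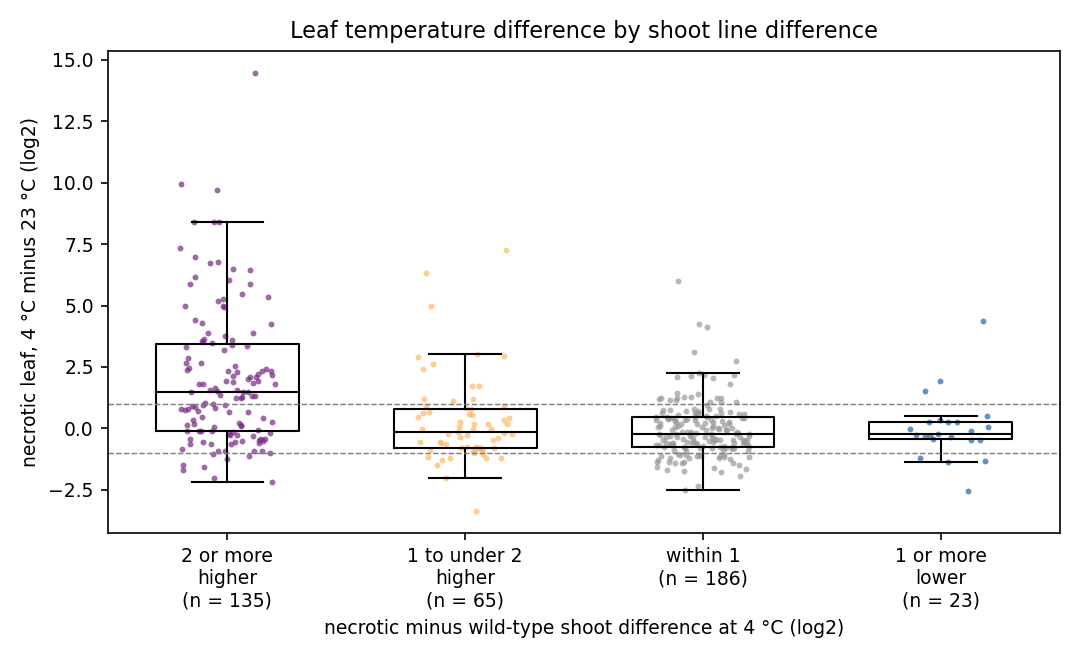
Difference between the necrotic leaf at 4 °C and at 23 °C (log2, 2-fold marked by dashed lines) for leaf-rich probes grouped by the necrotic minus wild-type shoot difference. Points are probes, boxes show quartiles and medians and whiskers reach 1.5 times the box height; the median is 1.496 for the 135 members and -0.22 for the 186 probes that differed by less than 1.

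The largest rise measured at both temperatures was that of MUGEST2003_23lib_Contig23735_p_373, at 6.04 and 5.94 in the necrotic leaf at 4 °C against -4.01 and -3.90 at 23 °C. That is a difference of 9.95 (SE 0.063), or 988-fold (adjusted p = 1.23e-09, limma), and 493-fold with normexp. The wild-type leaf at 4 °C held it at 4.995 and 5.078. In the shoots it stood at -0.23 and -0.25 in the necrotic line against -3.79 and -3.86 in the wild-type line. The second was whv16n1j21_66, at 3.06 and 2.97 at 4 °C against -5.27 and -5.49 at 23 °C, 337-fold higher (8.397, SE 0.087, limma adjusted p = 4.4e-09), and 93.0-fold with normexp. For both probes, the 23 °C leaf was as dim as or dimmer than the wild-type shoot, in which whv16n1j21_66 stood at -4.18 and -4.32.

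The highest bound among members not well above background on either array at 23 °C was that of MUGEST2003_23lib_Contig25377_360, picked out after its values were seen. It stood at 5.61 and 5.62 at 4 °C and was not well above background at 23 °C (-8.92 and -8.80), a rise of at least 7192-fold on the deposited signals (limma adjusted p = 5.84e-09). With normexp its fitted rise was 531-fold, below that bound, so the bound holds for the deposited background correction only. In the shoots it stood at -0.11 and -0.22 in the necrotic line against -4.36 and -4.36 in the wild-type line. In all, 4 members were not well above background on either array at 23 °C, and their bounds ran from at least 98.1-fold to at least 7192-fold.

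The members that were lower in the cold were fewer and moved less. MUGEST2003_23lib_Contig5811_533 stood at 0.44 and 0.35 at 4 °C against 2.54 and 2.59 at 23 °C, a difference of -2.17 (SE 0.15, limma adjusted p = 1.44e-05). The next, rwhkv1l16_430, stood at 1.60 and 1.62 at 4 °C against 3.72 and 3.54 at 23 °C, a difference of -2.02 (SE 0.072, limma adjusted p = 5.91e-07). Both had levels above 0 in the necrotic leaf at either temperature. In the necrotic shoot MUGEST2003_23lib_Contig5811_533 stood at -1.87 and -1.81, against -5.80 and -5.89 in the wild-type shoot. For rwhkv1l16_430 the necrotic shoot stood at -0.17 and -0.28, against -4.56 and -4.62 in the wild-type shoot. The probes named for their shoot difference did not share a direction. rwhkv10e02_224 was higher at 4 °C by 2.18 (SE 0.073, limma adjusted p = 4.43e-07), while wheat0130Contig9615 was lower by a difference of -0.91 (SE 0.042, limma adjusted p = 1.95e-06).

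Members of every direction in the cold leaf had a raised level in the necrotic shoot, as the rule requires. The 76 members at least 2-fold higher at 4 °C had shoot medians of -0.92 (necrotic) and -4.55 (wild type). For the 38 members called with less than 2-fold the medians were -1.01 (necrotic) and -4.22 (wild type), and for the 12 not called they were -2.56 (necrotic) and -5.26 (wild type). The 9 members at least 2-fold lower had -1.84 (necrotic) and -4.67 (wild type). The median share of the log2 difference between wild-type leaf and wild-type shoot reached in the necrotic shoot was 45.9%, 48.2%, 45.5% and 36.2% in the same order. Across the 135 members, which are not independent replicates, the shoot difference and the leaf temperature difference correlated at r = 0.069 (Spearman rho 0.073), over a range of shoot differences cut at 2 by the rule. Over all leaf-rich probes the median temperature difference was -0.43 for shoot differences of -1 to under 0, 0.002 for 0 to under 1 and -0.16 for 1 to under 2. It was 1.35 for 2 to under 3, 1.84 for 3 to under 4 and 1.22 for 4 or more. The shoot and leaf differences come from different arrays, but the rule links the levels of the cold leaves and the wild-type shoot. The relation between the 2 differences was not tested. At 23 °C, 25 of the 76, 34 of the 38, 12 of the 12 and 9 of the 9 had a level above 0.

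**Figure D5:**
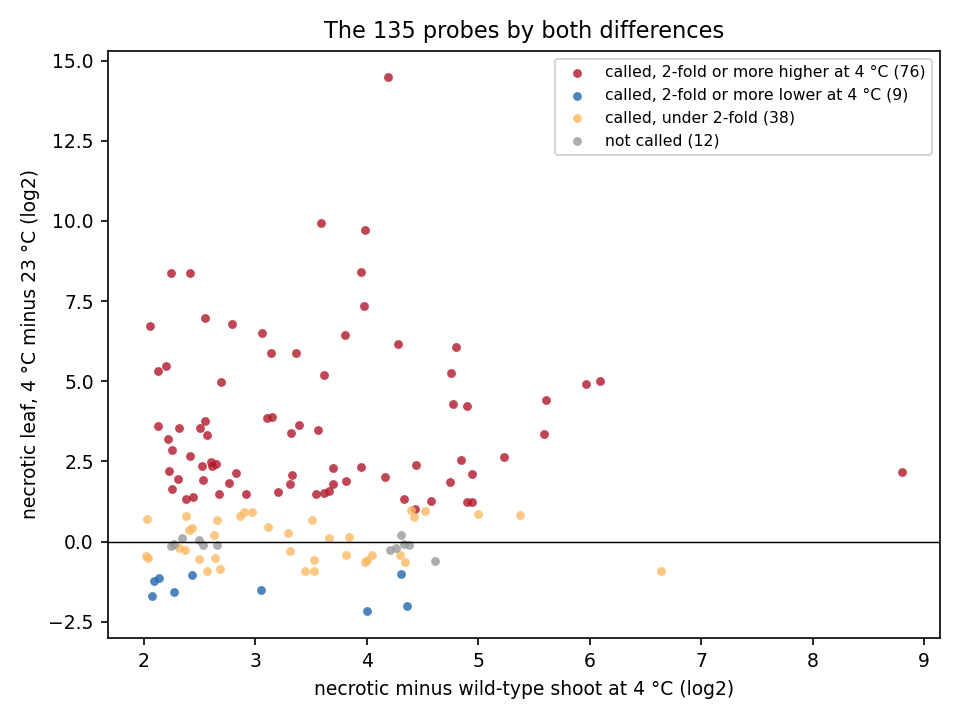
Difference between the necrotic leaf at 4 °C and at 23 °C against the difference between the necrotic and wild-type shoots at 4 °C (both log2) for the 135 members, coloured by the limma call in the temperature comparison. The 76 members with a called rise of 2-fold or more are spread over the whole range of shoot differences, and Pearson's r is 0.069.

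The probe names fall into series by how they begin, which carry no gene name. Of the members, 53 (39.3%) had names in MUGEST2003_23lib, which made up 20.1% of the array, 15.2% of probes with a wild-type leaf level above 0 and 26.7% of leaf-rich probes whose shoots differed by less than 1. The wheat0130Contig series gave 35 (25.9%), against 36.9% of the array, 51.7% of probes with a wild-type leaf level above 0 and 32.1% of the leaf-rich probes whose shoots differed by less than 1. The other names in wh or rwh gave 30 (22.2%), against 32.6% of the array but 14.5% of probes with a wild-type leaf level above 0 and 15.0% of leaf-rich probes whose shoots differed by less than 1. The whsh_allContig series gave 14 (10.4%) of the members, against 2.57% of the array, 6.39% of probes with a wild-type leaf level above 0 and 21.9% of the leaf-rich probes whose shoots differed by less than 1. The shares are descriptive, and the array design fixes what each series could contribute.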

How the data were processed

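Each of the 10 arrays was hybridised with Cy3-labelled cRNA from 1 sample, per the labels' protocols. The authors deposited Agilent Feature Extraction output (version 10.5.1.1 per the file headers, 9.5 per the submitters' processing notes), whose intensity is linear, background-subtracted and detrended within each array and not scaled between arrays. The deposited series matrix equals these values (largest relative difference 0) and was not used further. It is thus linear and not centred, with medians over non-control probes of 117 to 348.

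Without control spots 37826 probes remained, and 12 to 143 outlier spots per array were set to missing. Levels are log2 processed signals with the 75th percentile of each array subtracted. A probe was tested if 1 or more groups had it well above background on both arrays, with 1 mean per group over the 10 arrays (lmFit and eBayes, limma 3.58.1 in R 4.3.3, two-sided, Benjamini-Hochberg over 33045 probes), and checked on simulated data. Tables were made with Python 3.11.15 and pandas 2.3.3. Groups came from the sample titles. The number of arrays, 2 per group, limits the precision.

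The members, the lists and the comparisons were chosen with earlier results of these data known. Named probes are the 2 largest and 2 smallest shoot differences, the 2 largest called rises and falls of 2-fold or more between temperatures and the 2 highest and lowest shares, each among probes well above background in the groups compared, and the brightest probe in wild-type leaf. The marker lists matched 0 probes because no probe was paired with a gene in the table used (IWGSC CS RefSeq v2.1). Alternatives were normexp (offset 50, on median signals, since mean signals were not used here), quantile and median scaling, other filters and thresholds, a trend, a replicate block and leaving out arrays.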

Additional observations from a re-analysis of the deposited data

How the results depend on the processing

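The number of members depends on the background correction, the scaling between arrays and the thresholds. It was 69 with normexp, of which 66 were among the 135, 77 with a shoot difference of at least 3 and 88 with a leaf to shoot difference of at least 6. The number stayed within 1.5 times of 135 under the other alternatives. It ran from 125 among probes well above background on all shoot arrays (added after the data were seen) to 202 with a shoot difference of at least 1. Median scaling gave 195 members, of which 125 were among the 135. Quantile normalization gave 152, of which 129 were among the 135. Leaving out single arrays gave 132 to 139, and keeping outlier spots gave 136. With normexp the median shoot difference of the members was 2.32. The median share of the log2 difference between wild-type leaf and wild-type shoot was then 39.5%. With quantile normalization the median shoot difference was 3.57, and with median scaling the share was 42.4%; the cause was not tested. The normexp values of named shoot differences were added after the data were seen. In the temperature comparison the members at least 2-fold higher numbered 67 to 81 and those lower 7 to 9 over 13 alternatives, and the median difference was 1.46 to 1.61, the highest with median scaling (1.614). No member called in the temperature comparison changed its sign under these alternatives. Of leaf-rich probes with shoots within 1, the 32 that were at least 2-fold lower became 18 with quantile normalization. Replicate numbers recur in all groups, but the labels do not say that they pair samples, and deviations of same-numbered arrays from their group correlated at -0.0095 to 0.058; with the replicate block 76 members were higher and 9 lower.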

Other observations

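For 13 members the array held another probe of the same contig or clone name, apart from a leading r or what follows the contig or clone number, and the sources used here do not say how the 2 sequences relate. In 1 case both probes were members. The necrotic shoot was higher by 4.42 for rwhf14o20 and by 4.44 for whf14o20, where whf14o20 was well above background on only 1 of the 2 wild-type shoot arrays. These 2 probes were picked out after their values were seen. Of the 11 partner probes that were no members, 2 were not well above background in the wild-type shoot and were left out. These 2 were not well above background in any leaf group either. In the necrotic leaf at 4 °C, MUGEST2003_23lib_Contig23735_m_165 stood at -9.815, against 5.993 for the member MUGEST2003_23lib_Contig23735_p_373. There MUGEST2003_23lib_Contig6586_m_18 stood at -8.05, against 1.011 for the member MUGEST2003_23lib_Contig6586_p_304. Among the other 9, well above background on all shoot arrays, the shoot difference was at least 2 for 4, from 0 to under 2 for 3 and below 0 for 2, over a range of -0.83 to 3.19. No test was made, and these counts do not cover the leaf levels or temperature differences of the partners.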
